A study of Homo sapiens with 2 samples.

Results

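The clustered histone genes were described in HSC-1 cells, an established line of human cutaneous squamous cell carcinoma, after transfection with siNC, a control siRNA, or with siLINP1, an siRNA against the long noncoding RNA LINP1. The genes were all rows of the deposited gene table whose name starts with HIST and a digit, which are the genes of the HIST1, HIST2, HIST3 and HIST4 loci. There were 78 of them among 44591 rows, and 51 had at least 10 reads summed over both libraries, against 19840 rows of the whole table. The 51 were selected on these reads, and the family was chosen with the difference between siLINP1 and siNC already known, so that the fold changes below describe these libraries and were not tested. Just outside the limit lay HIST1H3A, with 3 reads in siNC and 6 in siLINP1, and just inside it HIST1H4K, with 4 and 9 reads.

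Each condition had 1 library, made from total RNA. By the labels, cells were transfected at about 70% confluency, kept without serum for 6 h and then in medium with 10% serum for 24 h. The paper's methods give another confluency and another time, and which siLINP1 oligonucleotide was used is not given in the sources used here. Counted reads came to 18829544 in siNC and 15383081 in siLINP1, and the size factors that scale them, taken as the median of the ratios of all genes, were 1.08 and 0.930. No difference had a replicate check, and every interval below is the 95% Clopper-Pearson interval of a gene's split of reads, which covers counting error only. LINP1 itself had 167 reads in siNC and 23 in siLINP1, a log2 fold change of -2.65 with an interval from -3.35 to -2.02. Of 14 squamous markers, 5 lay under 1 RPKM (reads scaled by gene length and library total) in both libraries, among them the keratin KRT5, with 32 and 24 reads, and the cadherin CDH1, with 14 and 3. The median of the 14 was 2.89 RPKM in siNC and 2.54 in siLINP1, and the highest was the integrin ITGB4 in siNC (51.4) and the integrin ITGA6 in siLINP1 (54.1). The 10 mesenchymal markers had medians of 5.74 and 6.04 RPKM, from 2 under 1 RPKM in both libraries (COL1A2 and THY1) to the filament gene VIM at 1519 and 1278.

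Histones are the proteins around which DNA is wound. H2A, H2B, H3 and H4 form the core of the nucleosome, and H1, the linker histone, binds the DNA where it enters and leaves. The clustered genes supply them while DNA is copied in S phase. Their mRNAs are made without introns and, unlike other mRNAs, commonly end in a conserved stem-loop in place of a poly(A) tail. The protein SLBP binds this stem-loop, and the U7 small nuclear RNA guides the cut that follows it. Variant histones such as H3.3, by contrast, come from genes outside the clusters, whose mRNAs commonly have poly(A) tails and are often made outside S phase too.

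The stem-loop is the feature that sets these transcripts apart, so its versions are shown first, 5′ to 3′, as read from the GRCh37 genome, which is the build of the table. A search took 6 bases that start with GG, a loop of 4 bases that starts with TTT, and the 6 bases that pair with the first. Capitals mark the paired stem and small letters the loop.
HIST1H1C and 42 other genes: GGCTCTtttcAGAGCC
HIST1H2BK and 10 other genes: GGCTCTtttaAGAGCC
HIST2H2AC: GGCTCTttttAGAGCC
HIST1H4D and 9 other H4 genes: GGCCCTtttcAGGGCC
HIST1H4I and 3 other H4 genes: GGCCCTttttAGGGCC
Of the 78 genes, 69 held a stem-loop with a perfect stem, 5 held it with 1 mismatch and 4 held neither in the row or the 50 bases on either side, namely HIST1H2APS1, HIST1H2BI, HIST1H3E and HIST1H4L. The stem with the pair of CCC and GGG was found in the 14 H4 genes of the last 2 lines and in no other type of histone, and the 55 perfect stem-loops of H1, H2A, H2B and H3 all had the other stem. In 61 of the 69 genes the table's 3′ end lay 0 to 10 bases past the stem-loop, with a median of 5. A perfect stem-loop lay within 100 bases of the 3′ end in 64 of the 78 genes (82.1%) and in 1 of 19163 other protein-coding rows (0.00522%). The stem-loop of HIST1H1C lay at chr6:26055972-26055987 on the minus strand, that of HIST1H4D at chr6:26188943-26188958 on the minus strand and that of HIST1H2BK at chr6:27114145-27114160 on the minus strand. By current symbol and position, 67 of the genes with a stem-loop were matched to GENCODE. It places the stem-loop in an exon of 64 and in an untranslated region of 63. A gene without a match is not thereby absent from GENCODE.

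The promoters are shown for a gene with a large difference between the libraries (HIST1H4D) and for genes that share a promoter with a neighbour. The latter are HIST1H2AC and HIST1H2BK, of which HIST1H2BK had no detectable difference. All were chosen after their values were seen. Each window holds 250 bases before the table's start and 50 from it on, in GRCh37, and capitals mark CCAAT (the box bound by NF-Y), TATAAA (the TATA box) and ATTTGCAT (the octamer bound by OCT1) on either strand.
HIST1H4D, chr6:26189255-26189554, minus strand: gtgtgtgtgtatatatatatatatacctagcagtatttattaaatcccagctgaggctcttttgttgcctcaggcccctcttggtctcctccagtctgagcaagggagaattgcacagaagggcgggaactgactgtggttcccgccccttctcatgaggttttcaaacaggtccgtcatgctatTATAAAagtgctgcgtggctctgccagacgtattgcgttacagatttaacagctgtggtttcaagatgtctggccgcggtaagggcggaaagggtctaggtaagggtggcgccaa
HIST1H2AC, chr6:26124123-26124422, plus strand: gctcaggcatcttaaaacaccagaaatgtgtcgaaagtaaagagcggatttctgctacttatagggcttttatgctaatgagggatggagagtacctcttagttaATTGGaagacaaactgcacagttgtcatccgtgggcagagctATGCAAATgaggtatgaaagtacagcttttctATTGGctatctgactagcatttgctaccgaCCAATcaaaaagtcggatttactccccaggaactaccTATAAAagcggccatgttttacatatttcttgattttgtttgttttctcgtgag
HIST1H2BK, chr6:27114588-27114887, minus strand: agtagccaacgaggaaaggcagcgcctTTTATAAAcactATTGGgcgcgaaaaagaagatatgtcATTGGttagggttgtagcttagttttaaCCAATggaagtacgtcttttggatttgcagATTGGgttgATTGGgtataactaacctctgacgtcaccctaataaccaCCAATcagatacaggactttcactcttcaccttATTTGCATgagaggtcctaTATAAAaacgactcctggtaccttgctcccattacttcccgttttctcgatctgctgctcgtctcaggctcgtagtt
The HIST1H4D window held 1 TATAAA and no other match. The HIST1H2AC window held 3 CCAAT, 1 ATTTGCAT and 1 TATAAA, and it covers the whole 241 bases between this gene and HIST1H2BC, which runs the other way. The HIST1H2BK window held 6 CCAAT, 3 TATAAA and 1 ATTTGCAT, with 1 pair of TATAAA matches on opposite strands that overlap. It covers the whole 224 bases between this gene and HIST1H2AH, which runs the other way and had 2 and 15 reads (log2 fold change 3.12). Its matches therefore belong to both genes. Over the protein-coding members, CCAAT was found in 60 of 70 windows (85.7%), against 35.9% of all 19233 protein-coding rows. TATAAA was found in 46 (65.7%, against 10.1%) and ATTTGCAT in 25 (35.7%, against 1.61%). All windows of H1, H2A, H2B and H3 genes held CCAAT, but only 5 of 15 windows of H4 genes did. ATTTGCAT stood in 14 of 18 H2B windows, 10 of 17 H2A windows, 1 of 14 H3 windows and in none of the H1 and H4 windows. The H3 window is that of HIST1H3D, whose row spans HIST1H2AD and starts where it starts. In 15 pairs an H2A and an H2B gene start 224 to 347 bases apart on opposite strands, and both windows of such a pair overlap. The same match can thus count for both genes, and the counts above are not of separate stretches of DNA. Among protein-coding members with at least 10 reads, CCAAT was found in 21 of 27 genes that were more than 2-fold higher in siLINP1 and in all 19 others, and every window without it is that of an H4 gene. TATAAA was found in 14 and 14 and ATTTGCAT in 8 and 9, as a description of these letters only.

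Reads of the clustered histone genes were more abundant in the siLINP1 library. Summed over all 78 genes they came to 1863 in siNC and 3003 in siLINP1, which is 0.00989% and 0.0195% of all counted reads and 1.86-fold after scaling (log2 fold change 0.90, interval 0.81 to 0.98). Of the 51 genes with at least 10 reads, 47 were higher in siLINP1 (92.2%) and 4 lower, against 47.8% higher among all rows with as many reads. More than 2-fold higher were 31 genes (60.8%), against 6.74% of all rows with as many reads, and 0 were more than 2-fold lower, against 5.3%. The interval lay above no change for 31 genes, against 23.0% of all rows, and below it for 0, against 25.6%. The whole interval lay above 2-fold for 7 genes, against 1.59%. The median log2 fold change was 1.21 over the 51 genes and -0.02 over all rows. In a library from a whole culture, a larger share of cells that make histone mRNA and more histone mRNA per cell cannot be told apart.

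**Figure D1:**
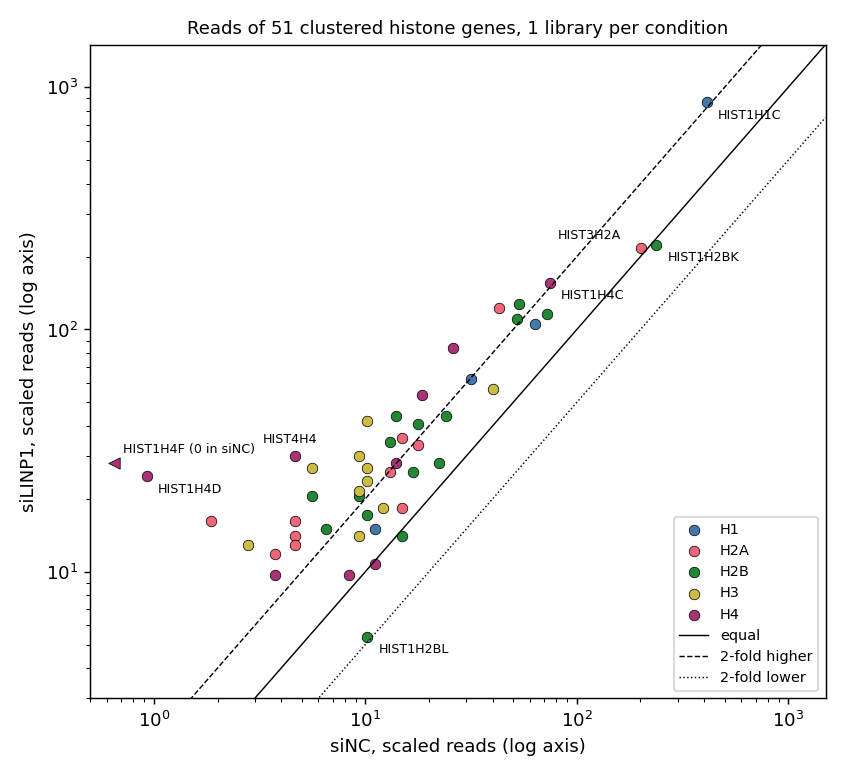
Scaled reads of the 51 genes in the siNC library (x axis, log scale) and in the siLINP1 library (y axis, log scale). Each point is a gene in 1 library per condition, with colours for the type of histone and the triangle for HIST1H4F, which had 0 reads in siNC and is set at the left edge. Of the 51 genes 47 lie above the line of equal reads, while HIST1H2BK and HIST3H2A lie close to it.

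Genes with few reads scatter more, so the share was also taken within bands of depth. Among genes with 10 to 29 reads, 12 of 19 clustered histone genes were more than 2-fold higher (63.2%), against 19.2% of all rows of that depth. With 30 to 99 reads they were 13 of 22 (59.1%), against 9.97%. With at least 100 reads they were 6 of 10 (60.0%), against 2.71%. The share among the histone genes was thus similar in the bands, whereas that of all rows fell with depth. A gene that reached 10 reads mainly through the siLINP1 library, such as HIST1H4F, had to differ, and the counts over the 51 genes include such genes. The 20 genes with 1 to 9 reads held 31 reads in siNC and 58 in siLINP1 in sum, a log2 fold change of 1.11 (0.46 to 1.79), and after scaling 14 were higher and 6 lower. The remaining 7 genes had 0 reads in both libraries, which with a floor of 3 reads leaves room for at most 3 reads in each. They are HIST1H1T, HIST1H2AA and HIST1H2BA, which are known from the testis, HIST1H3I and HIST1H4G, and the pseudogenes HIST1H2APS1 and HIST1H2BPS1.

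**Figure D2:**
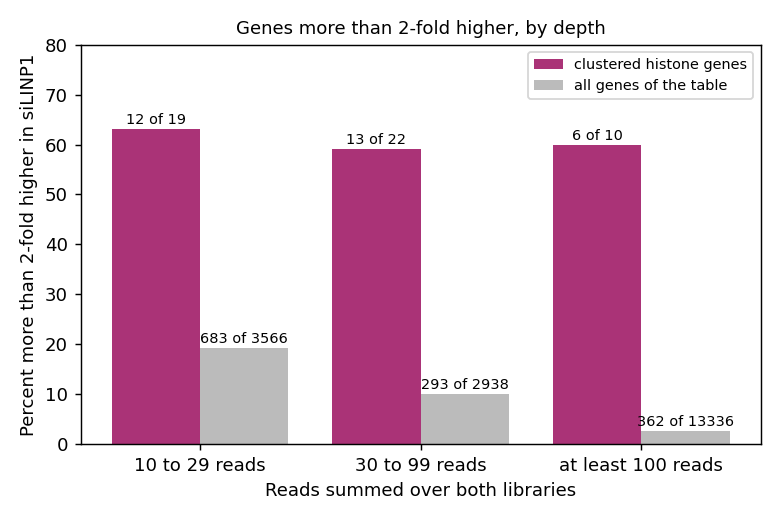
Percent of genes more than 2-fold higher in siLINP1 (y axis) among clustered histone genes and among all genes of the table, by reads summed over both libraries (x axis), with 1 library per condition. The histone bars stand between 59.1% and 63.2%, and those of all genes between 2.71% and 19.2%.

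The linker histone genes gave 560 reads in siNC and 975 in siLINP1 (log2 fold change 1.01, interval 0.86 to 1.16), and all 4 with at least 10 reads were higher. HIST1H1C, the gene of linker histone H1.2, had more reads than any other clustered histone gene, with 444 in siNC and 805 in siLINP1. Its log2 fold change was 1.07 (0.90 to 1.24), and it made up 23.8% of the reads of the family in siNC and 26.8% in siLINP1. HIST1H1E, which encodes H1.4, had 68 and 98 reads (0.74, 0.28 to 1.20). HIST1H1D, which encodes H1.3, had 34 and 58 reads (0.98, 0.34 to 1.64). The intervals of these H1 genes overlap, and differences between the genes were not tested. HIST1H1B, which encodes H1.5, had 12 and 14 reads, a difference that was not detectable at this depth. Without HIST1H1C the sum of the H1 genes had a log2 fold change of 0.76.

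The H2A genes gave 354 and 502 reads (0.71, 0.51 to 0.91). All 11 with at least 10 reads were higher in siLINP1, 7 of them more than 2-fold, and the median log2 fold change of 1.47 lay above that of the sum. The sum was weighted by HIST3H2A, the H2A gene of the HIST3 locus on chromosome 1, which had 216 reads in siNC and 202 in siLINP1 (0.11, -0.17 to 0.40). HIST1H2AC, which encodes a canonical H2A, had 46 and 114 reads (1.52, 1.01 to 2.05). HIST1H2AM had 19 and 31 reads (0.92, 0.05 to 1.82). Reads of HIST1H2AC were thus 2.87-fold higher, while those of HIST3H2A differed by less than counting error. HIST1H2AH had 2 reads in siNC and 15 in siLINP1 (3.12, 1.01 to 6.29). The other H2A genes ranged from HIST1H2AE, with 16 and 17 reads, to HIST1H2AD, with 5 and 15.

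The H2B genes gave 636 and 838 reads (0.61, 0.46 to 0.76), and 13 of the 16 with at least 10 reads were higher, 8 of them more than 2-fold. HIST1H2BK had the most reads in this group, with 256 in siNC and 208 in siLINP1 (-0.09, -0.36 to 0.18). HIST2H2BE had 78 and 108 reads (0.68, 0.25 to 1.12). HIST2H2BA, which the table lists as a noncoding RNA and which RefSeq names as the pseudogene H2BP1, had 57 and 118 reads (1.26, 0.79 to 1.74). So 2 of the 3 H2B genes with most reads were higher, and HIST1H2BK was not. HIST1H2BD was the next by reads, with 56 and 103 (1.09). In siNC HIST1H2BH had 16 reads and in siLINP1 it had 13. HIST1H2BL, with 11 and 5 reads, had the lowest fold change among genes with at least 10 reads (-0.93, -2.80 to 0.71). The intervals of these 3 H2B genes with lower scaled reads (HIST1H2BK, HIST1H2BH and HIST1H2BL) include no change.

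The H3 genes gave 133 and 272 reads (1.24, 0.94 to 1.55), and all 10 with at least 10 reads were higher, 7 of them more than 2-fold. The most reads fell on HIST2H3DP1, a pseudogene, with 43 and 53 (0.51, -0.10 to 1.13). HIST1H3D had 11 and 39 reads (2.04, 1.04 to 3.15), but its row spans HIST1H2AD on the same strand, so that reads of that gene may be among them. HIST1H3E had 10 and 28 reads (1.69, 0.61 to 2.90). The coding H3 genes thus stood higher in siLINP1 by point estimate, with the widest difference in HIST2H3D, which had 6 and 25 reads (2.27), and the narrowest in HIST1H3B, which had 10 and 13 (0.59).

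The H4 genes gave 180 and 416 reads (1.42, 1.16 to 1.68). This value lay above that of H3 with all rows, but below it with protein-coding genes only (H3 1.53, H4 1.42), and the intervals of H3 and H4 overlap. Of 10 with at least 10 reads, 9 were higher and 8 more than 2-fold higher, and the interval of the H4 sum lay wholly above those of H2A and H2B. The medians did not part H4 from H2A, with 1.46 for H4, 1.47 for H2A and 0.98 for H2B. The H2A and H2B sums hold many reads of HIST3H2A and HIST1H2BK, which were near no change, and differences between types were not tested. HIST1H4C led this group by reads, with 80 in siNC and 145 in siLINP1 (1.07, 0.66 to 1.48). HIST1H4E had 28 and 78 reads (1.69, 1.05 to 2.37). HIST1H4H had 20 and 50 reads (1.53, 0.76 to 2.36). The 14 H4 genes with perfect stem-loops all had a stem with the CCC and GGG pair shown above, whatever their reads. HIST1H4D had 1 read in siNC and 23 in siLINP1 (4.73, 2.11 to 10.10). HIST1H4F had 0 and 26 reads, 10.0-fold higher when the 0 in siNC is set to a floor of 3 reads. Its counting interval starts lower, at 7.59-fold (log2 2.92). HIST4H4, the single histone gene of the HIST4 locus on chromosome 12, had 5 and 28 reads (2.69, 1.30 to 4.42). These 3 genes had at most 5 reads in siNC, so that the size of their difference is poorly fixed. HIST1H4A had 9 reads in each library, and HIST1H4I had 12 and 10 (-0.05, -1.42 to 1.28). The coding sequences of histone genes of a type are nearly alike and the counting mode is not given in the sources used here, so that reads may have been dropped or shared between copies such as HIST2H4A and HIST2H4B, and the sums are less exposed to this than single genes.

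**Figure D3:**
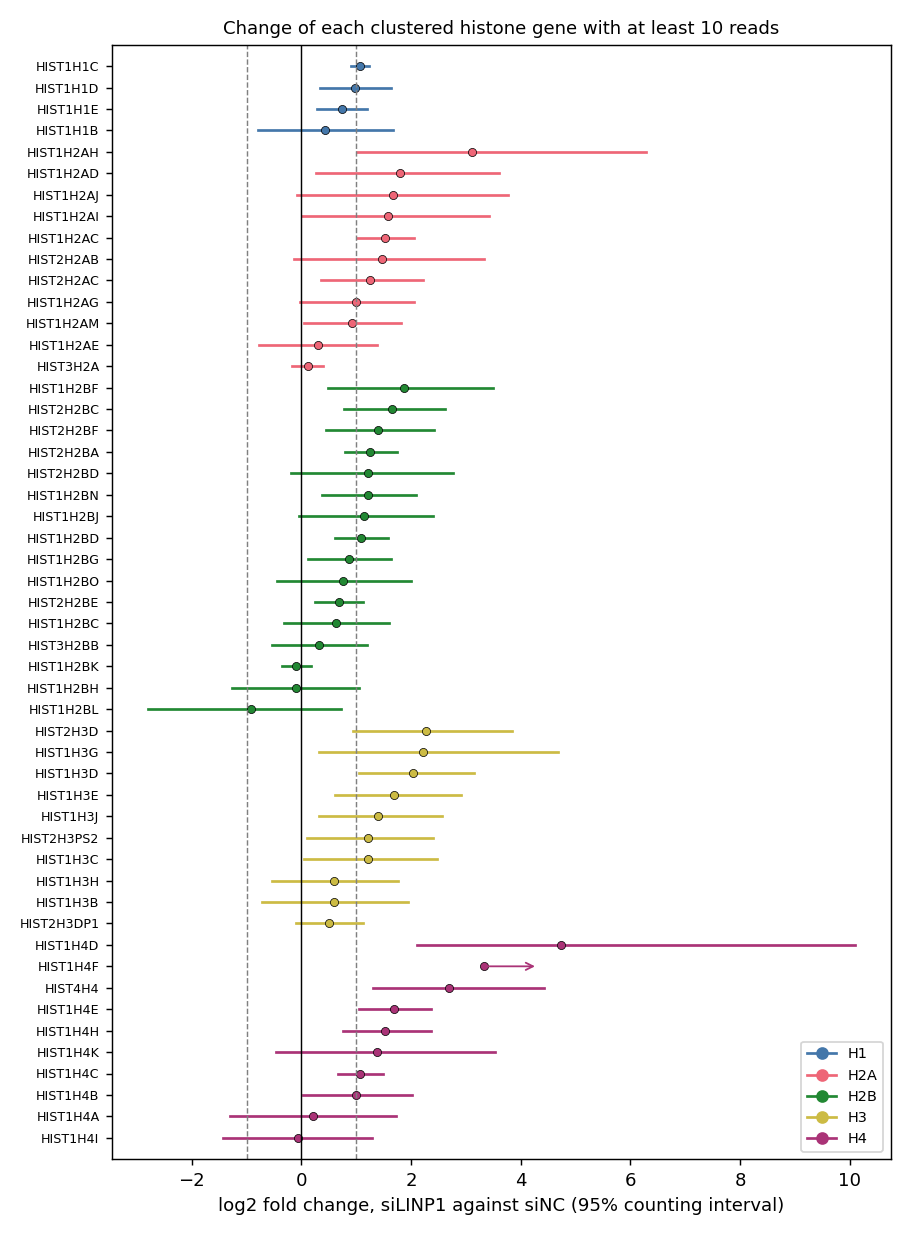
Log2 fold change of siLINP1 against siNC (x axis) for each clustered histone gene with at least 10 reads (y axis), grouped and coloured by type. Points are values from 1 library per condition, lines are 95% counting intervals, and the arrow marks HIST1H4F, whose value is a lower bound. No interval lies wholly below 0, and 7 lie wholly above the dashed line at 1, which marks 2-fold.

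The order of the types differed between levels and differences. In summed RPKM, a level per length, H2B stood highest in siNC with 47.6, followed by H1 with 40.1, H2A with 37.6, H4 with 25.1 and H3 with 14.6. In siLINP1 these were 80.6, 85.6, 65.3, 71.2 and 35.3, so that H1 and H4 moved up in the order. As a share of the family's reads, H4 made up 9.66% in siNC and 13.9% in siLINP1, and H2B 34.1% and 27.9%. The whole family summed to 165 RPKM in siNC and 338 in siLINP1, with 35 and 50 genes above 1 RPKM. Variant histone genes summed to 1405 and 1473 RPKM, so the RPKM sum of the clustered genes stayed well below theirs in both libraries. Selection of poly(A) RNA and the counting of reads shared between near-identical copies are not given in the sources used here. The sums therefore compare counted reads per length, and whether the amounts of RNA in the cells differed in this way was not tested.

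The difference was found in the loci of chromosomes 1, 6 and 12 to unlike extents. The HIST1 genes of chromosome 6 gave 1355 and 2272 reads (0.96, 0.86 to 1.05). The HIST2 genes of chromosome 1 gave 261 and 472 reads (1.06, 0.84 to 1.29), and all 10 with at least 10 reads were higher. The HIST3 genes, also of chromosome 1, gave 242 and 231 reads (0.14, -0.12 to 0.41), an interval that lies below those of HIST1 and HIST2. HIST3 rests mainly on HIST3H2A, whose neighbour HIST3H2BB had 24 and 26 reads. Within HIST1, gaps of over 300 kb part 3 groups of genes. The first, at chr6:25726291-26285727, gave 945 and 1800 reads (1.14, 1.02 to 1.25) and the last, at chr6:27775257-27861669, gave 116 and 196 (0.97, 0.63 to 1.31). The middle group at chr6:27100095-27115341 gave 294 and 276 reads (0.12, -0.12 to 0.36), most of them from HIST1H2BK, while its HIST1H2BJ had 10 and 19 reads and its HIST1H2AG 14 and 24.

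Between the first and the last HIST1 gene lie 139 rows that are not histone genes. Of the 24 with at least 10 reads, 12 were higher and 12 lower in siLINP1, and their median log2 fold change was 0.03. Only ZNF184, named here after its values were seen, was more than 2-fold higher (4.17%, against 6.74% of all rows). This zinc finger gene had 134 and 297 reads (1.36). More than 2-fold lower were 2, against 5.3% of all rows, PRSS16 with 22 and 8 reads (-1.25) and LOC108783645 with 18 and 6 (-1.38). The 13 protein-coding rows of the 24 had a median of -0.03. The 38 HIST1 genes with at least 10 reads had a median of 1.08, with 34 higher.

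**Figure D4:**
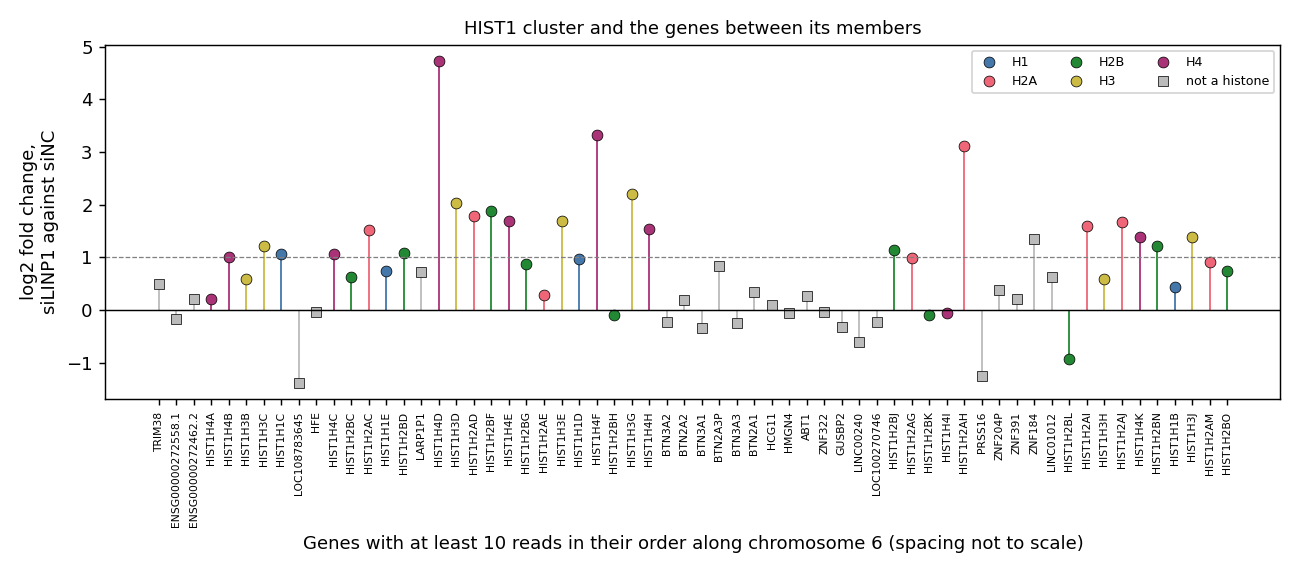
Log2 fold change of siLINP1 against siNC (y axis) for genes with at least 10 reads in their order along the HIST1 region of chromosome 6 (x axis, order only), 1 library per condition. Circles are histone genes coloured by type and squares are other genes. Of the 38 histone genes 34 lie above 0, and of the 24 other genes 12 do, with HIST1H4F drawn at its lower bound.

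Many H2A and H2B genes lie head to head, with a common promoter between them. There were 15 such pairs, each of an H2A and an H2B gene, 224 to 347 bases apart, and in 9 both genes had at least 10 reads. In 7 of the 9 both genes were higher in siLINP1, in 2 they differed in sign and in 0 were both lower. Of all 51 clustered histone genes 92.2% were higher, so most pairs would be higher in both genes without any link within pairs. Over the 9 pairs the log2 fold changes of the 2 genes had a Pearson correlation of -0.21 and a Spearman correlation of -0.23, not tested. HIST1H2AD and HIST1H2BF were close, with log2 fold changes of 1.79 and 1.87. HIST1H2BK and HIST1H2AH lie 224 bases apart and had -0.09 and 3.12, and their intervals do not overlap. HIST1H2BL and HIST1H2AI lie 268 bases apart and had -0.93 and 1.59, with overlapping intervals. HIST1H2AH, with 2 reads in siNC, reached 10 reads through siLINP1, so that its place in this comparison depends on its being higher there.

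Some rows run on past the stem-loop, where a transcript with a poly(A) tail could end. In 6 genes, all of type H2B, the row ended more than 100 bases beyond it, from 110 bases in HIST2H2BC to 29195 in HIST2H2BF, introns included. HIST1H2BK is among them, with 8073 bases that take in HIST1H4I on the other strand, and so are HIST1H2BD, HIST2H2BA and HIST2H2BE. Together they gave 476 and 610 reads (0.57, 0.39 to 0.74). The other 72 genes gave 1387 and 2393 reads (1.00, 0.90 to 1.09), and these intervals do not overlap. The 72 hold genes of every type, however, so the 2 sums differ in type of histone as well. All H2B genes together had 0.61 (0.46 to 0.76), and that interval overlaps the one of the 6. The lower sum rests on HIST1H2BK, since 4 of the 6 genes were more than 2-fold higher. HIST3H2A, whose row ends 5 bases past its stem-loop, was near no change as well. By length alone, rows of over 700 bases had a log2 fold change of 0.80 (0.68 to 0.92) and shorter rows 1.00 (0.88 to 1.12). Rows of 9 clustered histone genes overlap another row, and without these 9 the sum of the family was 0.99 (0.90 to 1.09).

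The lists beside which the family is set were written with earlier results of these data known, and their counts stand beside the 47.8% of all rows that were higher in siLINP1. Of all rows with at least 10 reads, 23.0% had an interval above no change and 25.6% one below it. Intervals are narrower for genes with many reads, as many listed genes have. Variant histone genes outside the clusters were near 0 in the median. Of 11 with at least 10 reads, 4 were higher (36.4%), 7 lower and 0 more than 2-fold higher. Their median was -0.06, and it became 0.02 when scaled by total count. The interval lay above no change for 2 and below it for 5. H3F3B, a gene of the replacement histone H3.3, had 12430 reads in siNC and 10297 in siLINP1 (-0.06). H1F0, the linker histone H1.0 of resting cells, had 9601 and 11645 reads (0.49, 0.45 to 0.53), and H1FX, another linker histone, had 10444 and 8832 (-0.03). The lowest value was that of H2AFV, a gene of H2A.Z, with 1997 and 1129 reads (-0.61).

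Genes that make and cut histone mRNA were also near 0 in the median. Of 25 genes, 8 were higher (32.0%) and 17 lower, with a median of -0.07 that became 0.01 when scaled by total count. The interval lay above no change for 5 and below it for 11. SLBP, the stem-loop binding protein, had 1006 and 775 reads (-0.17, -0.30 to -0.03). NPAT, the activator of histone gene transcription, had 173 and 192 reads (0.36, 0.06 to 0.66). CASP8AP2, a protein of the histone locus body, had 418 and 356 reads (-0.02). The most reads were on UPF1 (-0.34), a helicase of RNA decay, SNRPB (-0.21), a core protein of small nuclear RNPs, and SRRT (-0.07), which binds the cap complex. The values ranged from -0.64 for SNRPE, another core protein, to 0.79 for ZCCHC6, a uridylyltransferase. U7 RNA, listed as RNU7-1, had 0 reads in both libraries. Small RNAs were read unevenly, since RNU6-1 and SNORD118 also had 0 in both, whereas RNU4-2 had 14 and 18 reads. The 0 reads thus do not show whether U7 RNA was present.

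Histone chaperones and importers gave 6 higher (24.0%) and 19 lower of 25, with a median of -0.15. The interval lay above no change for 5 and below it for 13. NASP, a chaperone of H3, H4 and H1, had the highest value with 1457 and 1906 reads (0.60, 0.50 to 0.70), and ASF1B, a chaperone of newly made H3 and H4, had the lowest with 813 and 275 (-1.35, -1.56 to -1.16). NAP1L1 (-0.35), SSRP1 (-0.08) and IPO9 (-0.01), the 3 with most reads, bind H2A and H2B. S-phase genes gave 7 higher (30.4%) and 16 lower of 23, with a median of -0.07 that became 0.01 when scaled by total count. The interval lay above no change for 2 and below it for 8. Among the S-phase genes with most reads, MCM7 (0.15) and MCM4 (-0.07) belong to the replicative helicase and CDK2 (0.04) is the kinase of S-phase entry. RRM2, a subunit of ribonucleotide reductase, stood highest with 1417 and 1646 reads (0.43), and among genes with at least 100 reads E2F2, a transcription factor of S-phase entry, stood lowest with 76 and 43 (-0.61).

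**Figure D5:**
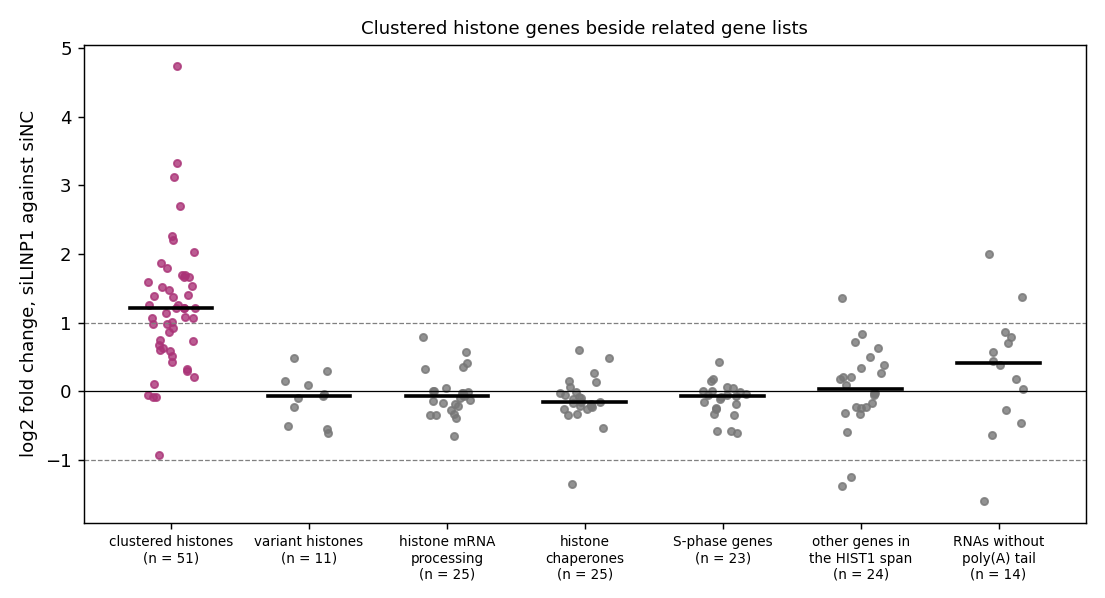
Log2 fold change of siLINP1 against siNC (y axis) for clustered histone genes and other lists (x axis), genes with at least 10 reads, 1 library per condition. Points are genes, spread sideways for clarity, bars are medians, and dashed lines mark 2-fold. The median is 1.21 for the clustered histone genes, between -0.15 and 0.03 for the next 5 lists and 0.41 for RNAs without a poly(A) tail.

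Among other RNAs known to lack a poly(A) tail, more were higher in siLINP1 than lower. Of 14 with at least 10 reads, 10 were higher in siLINP1 and 4 lower, against 47.8% higher among all rows, with a median of 0.41. The interval lay above no change for 6 and below it for 0. More than 2-fold higher were 2, RPPH1 and SNORD3A (14.3%), against 6.74% of all rows with at least 10 reads. In the bands of rising depth that share of all rows was 19.2%, 9.97% and 2.71%. More than 2-fold lower was 1, SCARNA9 with 14 and 4 reads (-1.60, -3.66 to 0.07), against 5.3% of all rows. Their sum went from 30301 to 33587 reads (0.36, 0.34 to 0.38). RN7SL2, an RNA of the signal recognition particle, had 16906 and 16555 reads (0.18), and RN7SL1, its paralog, 11384 and 13300 (0.43). RPPH1, the RNA of RNase P, had 1026 and 2309 reads (1.38, 1.27 to 1.49). SNORD3A, the U3 small nucleolar RNA, had 15 and 52 reads (interval 1.15 to 2.94). Whether the libraries were made after selection of poly(A) RNA is not given in the sources used here, and the part of such a step in the histone reads was not tested. Of 595 other protein-coding rows of 300 to 1000 bases, 148 were higher (24.9%) and 446 lower, with a median of -0.29, against 46.1% higher among all protein-coding rows.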

How the data were processed

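RNA sequencing of HSC-1 cells was analysed with 1 library for siNC and 1 for siLINP1. The authors used Tophat2 with the GRCh37/hg19 genome for alignment and applied HTSeq to the alignments. The submitters' processing notes name HISAT2, HISAT, TopHat2 and Bowtie2. Versions, annotation, strand setting and counting mode are not given in the sources used here. The deposited table holds raw read counts and RPKM values, and 12 other per-sample columns were not used. The authors' columns of fold changes and p-values were not used. The members and lists were chosen with earlier results of these data known. Every member with at least 10 reads could be named. Intervals were given for the 3 with most reads per type, for those wholly beyond 2-fold and for those at 0 in 1 library, and other members were given intervals after their values were seen. Of other lists, the 3 genes with most reads, the highest and lowest among genes with at least 100 reads, SLBP, NPAT and CASP8AP2 were named, and others after their values were seen. No p-value was computed. Fold changes used median-of-ratios size factors and no pseudocount, and a count of 0 was set to a floor of 3 reads. Intervals were tried on simulated counts that held counting error only, so this says nothing on the spread between cultures or libraries. Promoters and stem-loops were read from the GRCh37 genome. All 78 members matched RefSeq by NCBI gene number. The alternatives were scaling by total count or by TMM, minimums of 1, 30 and 100 reads, pseudocounts of 1 and 5, protein-coding genes only, no overlapping rows and no HIST1H1C. Python 3.11.15, pandas 2.3.3, scipy 1.17.1 and edgeR 4.0.16 (TMM factors only) were used.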

Additional observations from a re-analysis of the deposited data

How the results depend on the processing

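The direction of each summed type and of the family held under every alternative run. Of 121 values for the family, the types and the lists, 107 stayed within 1.5 times the count or within the interval of the first value. More than 2-fold higher were 19 genes with a minimum of 30 reads and 6 with 100, since fewer genes are left, and the interval lay above no change for 8 with 100. With a minimum of 1 read 1 gene was more than 2-fold lower, HIST1H2BB with 5 and 2 reads. The median log2 fold change of the family was 0.89 with a pseudocount of 5. The log2 fold change of the summed family was 0.78 with a minimum of 100 reads and 0.99 without overlapping rows, and, in alternatives chosen after seeing the data, 1.11 without HIST3H2A and HIST1H2BK and 1.15 without the 10 genes with most reads. It was 0.76 for H1 without HIST1H1C, 0.48 for H2A with a minimum of 100 reads and 0.78 for H2B without overlapping rows. Scaled by total count, the medians of histone mRNA processing genes, S-phase genes and variant histone genes became 0.014, 0.013 and 0.020, because that scaling moves every gene by 0.082. Of 204 values of single genes, 203 stayed within their intervals. HIST1H4F fell to 2.72 with a pseudocount of 5, below the lower end of its interval at 2.92. No paired analysis was possible because each condition had 1 library, which also leaves the spread between cultures unknown.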
